A study of Mus musculus with 3 samples.

Results

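The cells described here were Cd8a-positive, Cd8b1-negative alpha-beta T cells of the mouse small intestine, called Cd8a+ Cd8b1- cells below. A barcode was a member when it held 800 to 50000 UMIs (unique molecular identifiers, each standing for 1 captured RNA molecule), at most 40% of them from mitochondrial genes. It also needed at least 2 UMIs of the CD3 chains Cd3d, Cd3e and Cd3g together, at least 2 of the alpha-beta receptor constant genes Trac, Trbc1 and Trbc2 together, at least 2 of Cd8a and none of Cd8b1 or of the delta chain gene Trdc. The enterocyte genes Apoa1, Apoa4, Fabp1, Rbp2 and Alpi together had to stay below 2% of its UMIs. By this rule 132 of 27235 barcodes were members, of which the duodenum gave 6, the jejunum 18 and the ileum 108. The members were thus chosen by the measured UMI counts of these genes, whose own levels are given as descriptions and were not tested.

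One library per segment (duodenum, jejunum and ileum) was prepared with 10x Genomics chemistry from PI-negative (live) sorted epithelial cells and intraepithelial immune cells. Cells of 3 male mice, 12 weeks old, wild type and of the C57BL/6N strain, were pooled before sorting, so no value can be traced to a mouse and the segments were not replicated. The libraries held 98518847 UMIs (duodenum), 87656078 (jejunum) and 78074516 (ileum). Among the members, 2 barcodes occurred in a second library as well, as did 3 barcodes of Cd8a+ Cd8b1+ cells.

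CD8 is a coreceptor that binds MHC class I beside the T cell receptor, either as a pair of alpha chains or as an alpha chain joined to a beta chain encoded by Cd8b1. In the gut epithelium, alpha-beta T cells with CD8 made of alpha chains only are known as natural intraepithelial lymphocytes, which arise in the thymus by agonist selection, whereas those with the beta chain derive mostly from conventional T cells that entered the epithelium after activation. Natural intraepithelial lymphocytes are known for NK cell receptors and for the signaling adaptors encoded by Fcer1g and Tyrobp, and for little of the surface proteins CD2, CD5, CD28 and Thy1 found on conventional T cells.

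Cells without Cd8b1 were a minority of Cd8a+ alpha-beta T cells in the ileum and a majority of the few such cells in the other libraries. Their share was 66.7% in the duodenum (6 of 9 cells, 95% interval 29.9 to 92.5%), 64.3% in the jejunum (18 of 28, 44.1 to 81.4%) and 29.0% in the ileum (108 of 372, 24.5 to 33.9%). The exact binomial intervals of the jejunum and the ileum did not overlap, but with 1 library per segment the difference was not tested. Intervals here and below cover counting error only. Of all CD3-positive barcodes, the members made up 12.2% (6 of 49), 12.9% (18 of 140) and 8.74% (108 of 1236) in the same order.

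A Cd8b1 count of 0 depended on the depth of the cell. Among Cd8a+ alpha-beta T cells with 800 to 2000 UMIs, 65.7% had no Cd8b1 UMI (23 of 35), against 26.3% at 2000 to 4000 UMIs (44 of 167), 31.9% at 4000 to 8000 (59 of 185) and 27.3% above 8000 (6 of 22). When the 277 Cd8a+ Cd8b1+ cells were thinned at random to 800 UMIs, 47.7% of them lost every Cd8b1 UMI, and 14.3% of the 265 deep enough did so at 2000 UMIs. The median member had 3976.5 UMIs and the median Cd8a+ Cd8b1+ cell 4026. Some members may therefore be cells whose Cd8b1 RNA was not captured, and how many was not tested.

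**Figure D1:**
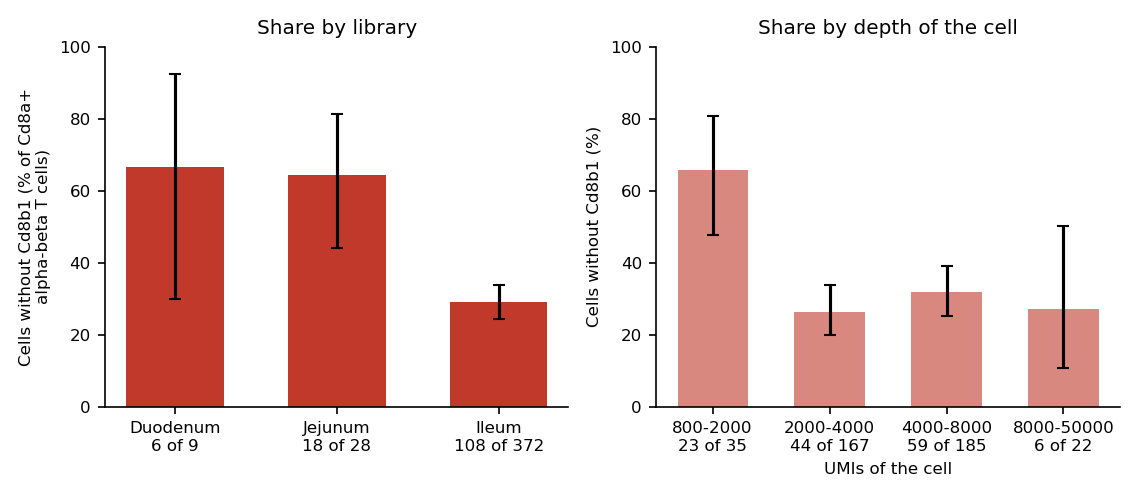
The left panel shows the percentage of Cd8a+ alpha-beta T cells that had no Cd8b1 UMI in each library, and the right panel the same percentage by the number of UMIs of the cell, with exact binomial 95% intervals as error bars and cell counts under each bar. The share was 29.0% in the ileum against 64.3% in the jejunum, and it was highest, 65.7%, in the cells with 800 to 2000 UMIs.

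Close to the thresholds, 29 members had exactly 2 Cd8a UMIs and 65 had 5 or more. Outside them, 33 barcodes met the rule but for a single Cd8a UMI, and 37 but for a single Cd8b1 UMI. Only 12 barcodes missed the rule by a single Trdc UMI, while 377 met it in all but having 2 or more Trdc UMIs. Such barcodes were set apart from members by the Trdc count alone. Some members may therefore be gamma-delta cells whose Trdc RNA was not captured, and how many was not tested. Genes of a general T cell list that the rule did not read were present as well. All 132 members had at least 2 UMIs of its 10 genes together, as had all cells of the classes compared below. The 10 include leukocyte genes such as Ptprc and Cd52, so this count does not set T cells apart from other leukocytes. They also include Lck, the kinase that signals from the coreceptor, at 6.45, 7.11 and 5.68 UMIs per 10000 in duodenum, jejunum and ileum. Those 10 genes summed to 53.2, 56.3 and 46.5 UMIs per 10000.

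The members were compared with 3 other T cell classes of the same libraries. These were 277 Cd8a+ Cd8b1+ cells (the same rule with at least 1 Cd8b1 UMI; 3, 10 and 264 cells in duodenum, jejunum and ileum), 581 gamma-delta cells (at least 2 Trdc UMIs; 18, 71 and 492) and 217 Cd8-negative alpha-beta cells (neither Cd8a nor Cd8b1; 9, 17 and 191). A level is a gene's UMI count per 10000 UMIs, taken over all cells of a class in a library. Tests used UMIs summed per library and class with at least 10 cells, so that 126 of the 132 members entered, from the jejunum and the ileum, and 8240 genes outside the rule were tested with edgeR's quasi-likelihood test and Benjamini-Hochberg adjustment. Such a test measures the spread between sums of different segments of the same pooled mice. It borrows that spread across genes. DESeq2 does so too, by another model, and its adjusted p-values are given beside those of the leading genes.

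Against Cd8a+ Cd8b1+ cells, the members had far more RNA of the adaptors Fcer1g and Tyrobp and of several NK receptors, and less of a group of genes typical of conventional T cells. At an adjusted p under 0.05, 84 genes were higher in the members (1.02% of those tested) and 65 lower (0.789%), and the median log2 fold change of all genes was 0.01. DESeq2 called 17 (0.206%) and 6 (0.0728%). Of 28 listed adaptor and NK receptor genes, 23 were tested, 14 rose and 0 fell, with a median log2 fold change of 2.30 over the 23. Of 17 listed genes of conventional, naive or memory T cells, 16 were tested, 0 rose and 9 fell, with a median of -1.66 (-1.47 with the genes that had no UMI in a class set to their bound).

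Fcer1g (chromosome 1, 171229572 to 171234365, minus strand, GRCm38) encodes a signaling chain shared by Fc receptors that can also join the T cell receptor complex. Its level was 11.8, 32.2 and 14.8 UMIs per 10000 in the members of duodenum, jejunum and ileum, and 0, 0 and 0.907 in Cd8a+ Cd8b1+ cells. Every library of the members lay above every library of the other class. The log2 fold change was 4.30 (SE 0.30; adjusted p = 5.60e-44 by edgeR and 0.00231 by DESeq2), and it stayed past the threshold in 20 of 20 alternatives, the largest adjusted p being 0.0059. Tyrobp (chromosome 7, 30413760 to 30417585, plus strand), the adaptor of activating NK receptors, had 6.99, 17.7 and 5.63 UMIs per 10000 against 0, 0 and 0.478. Its log2 fold change was 3.77 (SE 0.30; adjusted p = 8.44e-33 by edgeR and 1.05e-06 by DESeq2), again called in 20 of 20 alternatives. Hcst, the adaptor that pairs with the receptor of Klrk1, did not pass (log2 fold change -0.42, SE 0.26).

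Among the receptors, Klrd1, the CD94 chain that pairs with NKG2 proteins, stood at 1.07, 13.1 and 9.11 UMIs per 10000 in the members and 0.898, 0 and 1.71 in Cd8a+ Cd8b1+ cells. The duodenal values of both classes were close, and each rested on few cells. In edgeR the log2 fold change of Klrd1 was 2.76 (SE 0.28; adjusted p = 7.15e-20), whereas DESeq2 gave an adjusted p of 0.244. Klrb1a, a C-type lectin receptor of the NKR-P1 family, was at 0.537, 1.81 and 1.19 UMIs per 10000 against 0, 0 and 0.0324 (log2 fold change 4.96, SE 0.57). Klra5, a Ly49 receptor, had 37 UMIs in the members and none in Cd8a+ Cd8b1+ cells, which made it at least 28.2-fold higher when 3 counts over the group are taken as the floor. Klre1 (4.67), Klra6 (3.70), Klrb1c (3.41), Lag3 (1.98), Cd7 (1.48) and Cd244 (1.22) rose as well by these log2 fold changes, and Klra3 was at least 18.3-fold higher. Klrb1a, Klre1 and Klra5 were called by DESeq2 too, but Cd7, Cd244, Lag3, Klra3, Klra6 and Klrb1c were not.

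Ikzf2, which encodes the transcription factor Helios, was at 4.84, 7.25 and 7.35 UMIs per 10000 in the members and 0, 0.498 and 0.972 in Cd8a+ Cd8b1+ cells. The groups of libraries did not overlap, and the log2 fold change was 2.86 (SE 0.29; adjusted p = 5.38e-20 by edgeR and 4.96e-11 by DESeq2), with the call present in 20 of 20 alternatives. Il2rb, the beta chain shared by the receptors of interleukins IL-2 and IL-15, was at 0.537, 6.69 and 2.63 against 0.898, 0.498 and 0.575. It was higher in the jejunum and the ileum and lower in the duodenum, with a log2 fold change of 2.30 (SE 0.29; adjusted p = 1.24e-12 by edgeR and 0.000333 by DESeq2). Among 27 other listed transcription factor genes, 22 were tested and 0 passed, with 3 at an unadjusted p under 0.05 by edgeR and 0 called by DESeq2; Runx3, a regulator of CD8 T cells and of tissue residency, had a log2 fold change of 0.15 and Tcf7 one of -0.08.

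The genes that fell included surface proteins that tune activation of conventional T cells. Thy1 was at 1.07, 0.139 and 1.31 UMIs per 10000 in the members and 2.69, 2.99 and 3.88 in Cd8a+ Cd8b1+ cells, lower in every library (log2 fold change -1.83, SE 0.29; adjusted p = 5.26e-08 by edgeR and 0.149 by DESeq2). Il7r, the receptor of the survival cytokine IL-7, was at 3.76, 0.139 and 0.635 against 0, 2.24 and 2.82. The 6 duodenal members were thus above the 3 duodenal Cd8a+ Cd8b1+ cells, while the tested libraries gave a log2 fold change of -2.36 (SE 0.33; adjusted p = 1.63e-10 by edgeR and 0.0141 by DESeq2). Cd28, a costimulatory receptor, fell by 2.15 on the log2 scale, Cd5 and Cd6, which dampen receptor signals, each fell by 1.79, Cd2, an adhesion receptor, fell by 1.32, and Klf2, a regulator of T cell egress, fell by 1.54. Ccr7, which guides T cells to lymph nodes, had no UMI in the members and was at least 4.81-fold lower. S1pr1 was the remaining call, and it was lost without the barcodes that carried other cells' genes. DESeq2 called only Il7r of these 9 genes.

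Lat, the scaffold protein downstream of the T cell receptor, was the only 1 of 10 general T cell genes to pass. It was at 1.61, 1.53 and 2.25 UMIs per 10000 in the members and 5.39, 5.48 and 5.16 in Cd8a+ Cd8b1+ cells, so the libraries did not overlap (log2 fold change -1.38, SE 0.27; adjusted p = 3.47e-05 by edgeR and 0.0143 by DESeq2). Lat2, a related scaffold, rose by 3.17 on that scale. Ms4a4b, a membrane protein of T cells, was at 6.99, 0.279 and 1.74 against 12.6, 8.72 and 6.55 (log2 fold change -2.37, SE 0.28; adjusted p = 5.97e-15 by edgeR and 0.000466 by DESeq2).

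**Figure D2:**
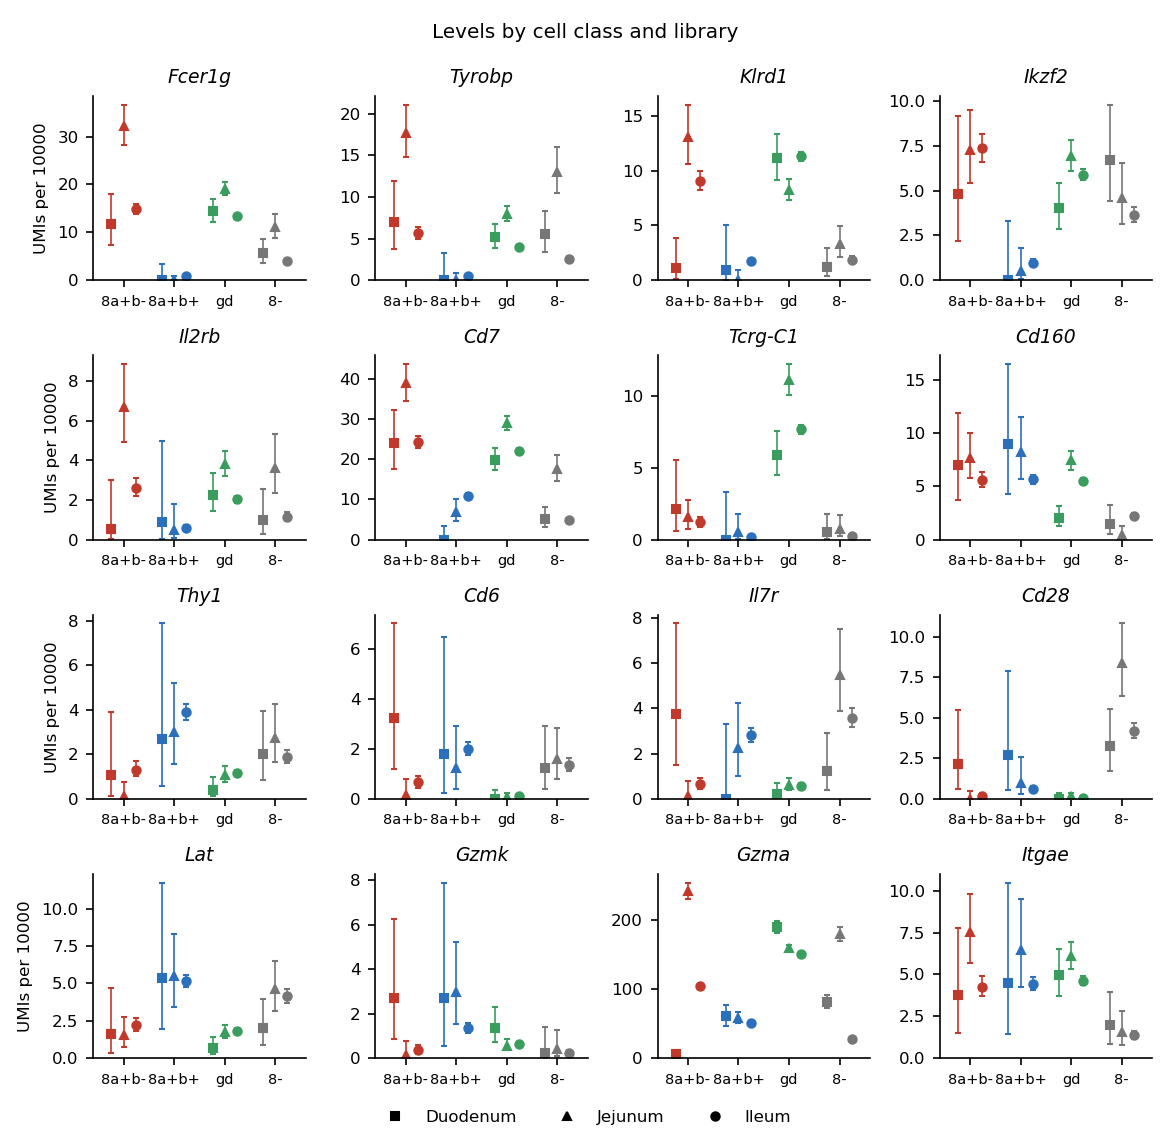
UMIs per 10000 of 16 genes (1 per panel, linear axes from 0) in the 4 cell classes, where 8a+b- marks the Cd8a+ Cd8b1- cells, 8a+b+ the Cd8a+ Cd8b1+ cells, gd the gamma-delta cells and 8- the Cd8-negative alpha-beta cells. Squares are the duodenum, triangles the jejunum and circles the ileum, with exact Poisson 95% intervals. Fcer1g was at 14.8 in ileal members against 0.907 in ileal Cd8a+ Cd8b1+ cells, while Thy1 was at 1.31 against 3.88.

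The cytotoxic program did not move as 1 block. Of 25 listed cytotoxic and effector genes 21 were tested, 2 rose and 2 fell. Gzma, which encodes granzyme A, was at 6.45, 241.5 and 103.5 UMIs per 10000 in the members and 60.2, 58.5 and 51.5 in Cd8a+ Cd8b1+ cells, and Gzmb, which encodes granzyme B, was at 1.07, 49.4 and 19.9 against 9.88, 11.2 and 8.95. In the tested libraries Gzma rose by a log2 fold change of 1.41 (SE 0.25; adjusted p = 3.68e-06) and Gzmb by 1.46 (SE 0.25; adjusted p = 1.04e-06) in edgeR, but the duodenum went the other way. DESeq2 gave adjusted p-values of 1.00 and 0.815, and sums of at least 3 cells, which bring in the duodenum, 0.993 and 0.788. The share of cells was not higher with the level. After thinning to 800 UMIs, 48.5% of the members and 56.0% of Cd8a+ Cd8b1+ cells had a Gzma UMI, and 35.6% and 35.4% a Gzmb UMI.

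Gzmk, encoding the granzyme of memory-like CD8 T cells, and the chemokine gene Ccl4 fell. Gzmk was at 2.69, 0.139 and 0.360 UMIs per 10000 against 2.69, 2.99 and 1.34 (log2 fold change -2.28, SE 0.40; adjusted p = 3.89e-06 by edgeR and 0.0355 by DESeq2). Ccl4 was at 2.15, 1.26 and 2.31 against 93.4, 6.48 and 9.41, lower in every library (log2 fold change -2.10, SE 0.26; adjusted p = 8.58e-13 by edgeR and 0.00916 by DESeq2). The values of Nkg7 (log2 fold change 0.11) and of the chemokines Ccl5 (0.19) and Xcl1 (0.29) did not pass. Neither did Cd160 (-0.06), a gene of the adaptor and NK receptor list, or the residency gene Itgae (0.01). Itgae, which encodes the integrin chain that binds E-cadherin, was at 3.76, 7.53 and 4.28 against 4.49, 6.47 and 4.44 UMIs per 10000. Ccr9, the receptor of the gut chemokine CCL25, and Itgal, the integrin chain of LFA-1, were the homing genes that fell, by 1.25 and 1.82 on the log2 scale, and Rgs2, a regulator of G protein signaling, rose by 1.13 but lost its call without the barcodes that carried other cells' genes.

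The remaining lists held few calls. In edgeR, 0 of 11 cytokine receptor genes (2 at an unadjusted p under 0.05, 0 by DESeq2) and 0 of 13 glycolysis and lipid genes (0 at an unadjusted p under 0.05, 0 by DESeq2) passed. Of the inhibitory receptor genes, Cd200r1 rose (2.24), as did its relative Cd200r2 (4.47). Of 15 interferon response genes 2 fell, of 17 immediate early genes 1 (Dusp2), and of 12 cell cycle genes Stmn1 rose, for which a single member held 91.8% of the UMIs. Of 10 heat shock genes Hspa1b rose (2.18), a call lost without the barcodes that carried other cells' genes. Of 4 tested NK and innate lymphoid markers Klrb1c and Kit rose, of 6 MAIT, NKT and innate-like markers Klrb1c, and of 10 helper and regulatory markers Ikzf2, so that Klrb1c and Ikzf2 count in several lists. The 10 largest rises among genes that moved alike in all libraries were Klrb1a, Itgad, Cd200r2, Fcer1g, Arap3, Clnk, Tyrobp, Trdv1, Napsa and Itih5. The 10 largest falls were Igha, Ly6a, Gm8369, Ms4a4b, Gzmk, Cd28, Ccl4, Thy1, Acp5 and Ifi27l2a, of which Igha and Ly6a were lost without the barcodes that carried other cells' genes.

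Genes of other cells were present and moved with some of these calls. A single ileal member of 28565 UMIs held 695 Cd74, 463 Cst3, 210 H2-Aa, 97 Apol7c, 16 Xcr1 and 8 Clec9a UMIs, genes of antigen presentation and of cross-presenting dendritic cells, and no Fcer1g. The same barcode held much goblet cell RNA. In the members without Fcer1g, leaving it out took Zg16 from 928 to 135 UMIs and Tff3 from 783 to 87. Macrophage and dendritic cell markers summed to 0, 3.21 and 12.5 UMIs per 10000 in the members and 2.69, 1.99 and 1.51 in Cd8a+ Cd8b1+ cells, with 3 of 5 tested called higher. B and plasma cell markers summed to 6.99, 6.97 and 33.5 against 7.19, 4.98 and 155.3, with 5 of 12 higher and 4 lower, and a single Cd8a+ Cd8b1+ cell held 98.5% of the Igkc of its class. Goblet, Paneth and tuft cell markers summed to 9.67, 11.4 and 100.2 against 9.88, 12.0 and 222.4. Of these, 1 of 13 was higher (Lrmp) and 2 were lower (Zg16 and Agr2), and 1 of 17 enterocyte markers was lower. Whether the Lrmp RNA came from other cells or from the T cells was not tested. Without barcodes that held 20 or more UMIs of MHC class II, immunoglobulin or hemoglobin genes, 131 members and 269 Cd8a+ Cd8b1+ cells remained. The counts then were 63 genes higher (0.774% of those tested) and 64 lower (0.786%). Of the macrophage and dendritic markers 0 were called, and of the B and plasma cell markers 1. The goblet, Paneth and tuft list then had 7 of 13 markers lower and 1 higher, with a median log2 fold change of -1.35 against -0.41 before. The part of such RNA in the remaining calls was not tested. The adaptor and NK receptor list still had 14 genes higher and the conventional list 8 lower. In 6334 barcodes with at least 5% of UMIs from the enterocyte genes and no CD3, Fcer1g was at 0.0212, Tyrobp at 0.0143 and Gzma at 0.0864 UMIs per 10000.

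**Figure D3:**
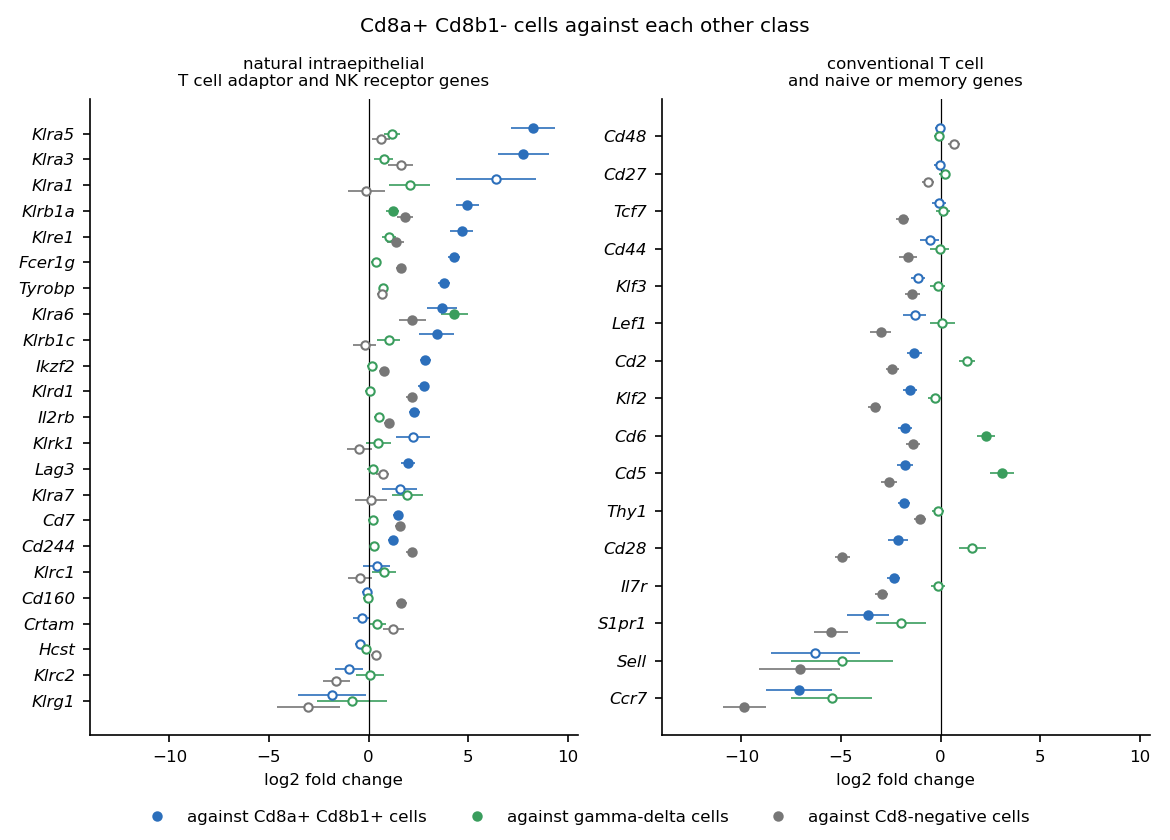
Log2 fold changes of the Cd8a+ Cd8b1- cells against each other class for the adaptor and NK receptor list (left) and the conventional list (right), from edgeR, with approximate standard errors as bars. Filled points passed an adjusted p of 0.05 and open points did not, and genes without a UMI in a class have fitted values that are no bound. Against Cd8a+ Cd8b1+ cells 14 genes on the left rose and 9 on the right fell, and Fcer1g had a log2 fold change of 4.30.

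Against gamma-delta cells fewer genes were called. There were 18 genes higher (0.218% of 8240) and 21 lower (0.255%), and the median log2 fold change of all genes was -0.03. Genes of other cells were among them, with 4 of 12 tested B and plasma cell markers higher (H2-Eb1, H2-Ab1, H2-Aa and Cd74, the MHC class II genes and their invariant chain) and 2 lower (Cd79a and Cd79b). Xcr1 and Cst3 of 5 macrophage and dendritic cell markers and Agr2 of 13 goblet, Paneth and tuft cell markers were higher, as was Apol7c, and the enterocyte keratins Krt19 and Krt8 and the hemoglobin genes Hbb-bs, Hbb-bt, Hba-a1 and Hba-a2 were lower. Without the barcodes with 20 or more UMIs of other cells' genes, edgeR called 5 genes higher (0.0614%) and 13 lower (0.16%), and none of the markers named here as higher. Fcer1g was at 14.5, 19.1 and 13.4 UMIs per 10000 in gamma-delta cells of duodenum, jejunum and ileum, overlapping the members (log2 fold change 0.37, approximate 95% interval -0.07 to 0.815). The values of Tyrobp (0.74, adjusted p = 0.146 by edgeR), Klrd1 (0.07), Ikzf2 (0.16), Il2rb (0.50), Cd7 (0.21) and Thy1 (-0.12) did not pass. Gzma was at 189.0, 159.0 and 150.5 in gamma-delta cells, with a log2 fold change of -0.09 in the members. Of the adaptor and NK receptor list, 2 of 23 rose, Klrb1a (1.21) and Klra6 (4.31), and the median was 0.50. Klrb1a lost its call without the barcodes that carried other cells' genes (adjusted p = 0.0764 by edgeR) and was called in 9 of 18 alternatives, so that 1 gene of the list was then higher.

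Of 5 tested receptor and coreceptor genes outside the rule, only Tcrg-C1 was called against gamma-delta cells. This gamma chain constant gene was at 2.15, 1.53 and 1.19 UMIs per 10000 in the members and 5.86, 11.1 and 7.66 in gamma-delta cells, with no overlap (log2 fold change -2.75, SE 0.27; adjusted p = 7.12e-22 by edgeR and 7.16e-08 by DESeq2), and this call held in 17 of 17 alternatives, leaving aside the one that removes alpha-beta cells with a gamma constant UMI. Against Cd8a+ Cd8b1+ cells, with 0, 0.498 and 0.186, the same gene was higher in the members (2.44, SE 0.40; adjusted p = 2.11e-07 by edgeR and 0.00424 by DESeq2). A Tcrg-C1 UMI was present in 27.3% of the members, 85.0% of gamma-delta cells and 6.5% of Cd8a+ Cd8b1+ cells. Tcrg-C2 was at 4.84, 6.42 and 5.21 in the members and 2.93, 5.87 and 4.99 in gamma-delta cells. A Tcrg-C2 UMI was present in 69.7% of the members, 75.8% of Cd8a+ Cd8b1+ cells and 80.6% of gamma-delta cells. For Tcrg-C4 these shares were 65.2%, 56.7% and 78.0%. RNA of both genes was thus common in Cd8a+ Cd8b1+ cells as well. Of the 132 members, 20 had no UMI of any gamma constant gene. Trac, a gene of the rule, had a UMI in 84.8% of the members and in 57.3% of gamma-delta cells. Variable segments were sparse, with a Trav UMI in 20 members, a Trbv UMI in 7, a Trdv1 UMI in 11 and a Trgv2 UMI in 51. Trgv2 was also found in 247 of 581 gamma-delta cells and in 89 of 277 Cd8a+ Cd8b1+ cells. Trdv1 was found in 15 of 217 Cd8-negative cells and in 2 of 277 Cd8a+ Cd8b1+ cells. Its level was 0.0677 UMIs per 10000 in gamma-delta cells, against 0.435 in members with Fcer1g and 0 in those without. The part of gamma-delta cells with missed Trdc RNA in the levels of the members was not tested.

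The other genes that rose against gamma-delta cells included Cd5 (3.07, SE 0.61) and Cd6 (2.28, SE 0.44), the only 2 of 16 tested conventional T cell genes called. Cd6 was at 3.22, 0.139 and 0.657 UMIs per 10000 in the members and 0, 0.0815 and 0.122 in gamma-delta cells, and Cd5 at 2.69, 0 and 0.381 against 0, 0.0272 and 0.0380, so the rise of Cd5 rested on the ileum among the tested libraries. DESeq2 called neither. The heat shock genes Hspa1b (2.26) and Hspa1a (1.54) rose too, and so did Ada, which encodes adenosine deaminase (1.31). Genes that fell were Ccl4 (-1.52), the transcription factor gene Maf (-1.76), Mgst3, Gm156, Tcrg-V7 and Dmbt1, the last 2 without a UMI in the members and at least 4.54- and 4.17-fold lower. Without the barcodes that carried other cells' genes the calls of Hspa1a, Maf, Gm156 and Tcrg-V7 were lost, with adjusted p-values of 1.00, 0.0691, 0.0532 and 0.0761 by edgeR. DESeq2 called Tcrg-C1 as lower and Hspa1b as higher (0.0121% of genes each) and no other gene.

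Against Cd8-negative alpha-beta cells, which include CD4 T cells, 102 genes were higher (1.24% of 8240) and 171 lower (2.08%), and the median of all genes was -0.0030. DESeq2 called 21 (0.255%) and 40 (0.485%). Markers of other cells were among the edgeR calls. Xcr1 and Cst3 of 5 tested macrophage and dendritic cell markers were higher. Of 12 B and plasma cell markers, H2-Eb1 was higher and Cd79a lower. Of 13 goblet, Paneth and tuft cell markers, Lrmp was higher and Zg16, Clca1 and Muc2 were lower. Krt19 of 17 enterocyte markers was lower. Without the barcodes that carried other cells' genes, edgeR called 91 genes higher (1.12%) and 186 lower (2.29%). Of the goblet, Paneth and tuft cell markers 6 were then lower and 1 higher, and of the enterocyte markers 4 were lower. Of the macrophage and dendritic and the B and plasma cell markers 0 were called. The part of such RNA in the remaining calls was not tested. With all barcodes, 9 of 21 tested cytotoxic and effector genes rose and 2 fell. Of 23 adaptor and NK receptor genes 10 rose and 0 fell, and of 21 homing and residency genes 4 rose and 3 fell. Ctsw, a protease of cytotoxic cells, was at 3.76, 12.6 and 9.74 UMIs per 10000 against 2.24, 2.02 and 2.64 (log2 fold change 1.99, SE 0.26; adjusted p = 1.27e-11 by edgeR and 4.63e-08 by DESeq2). Itgae rose by 1.72 and was at 1.99, 1.59 and 1.38 in the Cd8-negative cells, below all libraries of the members. Cd244 (2.16), Klrd1 (2.17), Fcer1g (1.64), Cd160 (1.65), Cd7 (1.60), Nkg7 (1.43), Xcl1 (1.71), Jaml (1.77) and Runx3 (1.21) rose as well by these log2 fold changes, and so did the gamma constant genes Tcrg-C2 (2.09) and Tcrg-C4 (2.01). DESeq2 did not call Klrd1, Fcer1g, Cd7 or Xcl1.

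Of 10 tested markers of helper and regulatory T cells 6 fell and 1 rose. The rise was that of Ikzf2, which counts in the adaptor and NK receptor list too. DESeq2 did not call it, and edgeR lost the call without the barcodes that carried other cells' genes. Of 16 conventional genes 14 fell and 0 rose (median -2.51, or -2.34 with genes at 0 set to their bound). Cd28 was at 2.15, 0 and 0.191 UMIs per 10000 in the members and 3.24, 8.36 and 4.20 in Cd8-negative cells, lower in every library (log2 fold change -4.95, SE 0.38; adjusted p = 5.39e-35 by edgeR and 6.06e-08 by DESeq2). Icos, a costimulatory receptor of helper cells, was at 0, 0 and 0.169 against 4.49, 4.47 and 2.92, and Ctla4, an inhibitory receptor, at 0, 0.139 and 0.169 against 1.99, 5.91 and 2.22. Their log2 fold changes were -4.49 (SE 0.43) and -4.15 (SE 0.42), and Maf (-4.48) and Il7r (-2.96) fell too. Cd4 had 5 UMIs in all members and 123 in Cd8-negative cells. Foxp3, the factor of regulatory T cells, had no UMI in the members (at least 4.16-fold lower), and the same held for Cd40lg (at least 13.9-fold) and Ccr7 (at least 28.5-fold). By the size of the change among genes that moved alike in all libraries, Gm44175, Capn3, Fgr, Cd200r2 and Clnk led the rises and Izumo1r, Ccr7, Tspan32, Tnfrsf4 and Slfn5 the falls, these 5 having no UMI in the members.

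The members were not uniform for Fcer1g. With 90 cells having at least 1 Fcer1g UMI and 42 having none, the share was 68.2% (95% interval 59.5 to 76.0%), against 5.42% of Cd8a+ Cd8b1+ cells, 74.4% of gamma-delta cells and 18.9% of Cd8-negative cells. Thinned to 800 UMIs these shares were 58.3%, 2.89%, 53.9% and 13.4%, so the order against Cd8a+ Cd8b1+ cells stayed at equal depth. By library, 2 of 6, 16 of 18 and 72 of 108 members had it. This split was chosen after the values were seen, and what follows from it is a description without a test.

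Conventional surface genes were found both with and without Fcer1g. A UMI of Cd2, Cd5, Cd6 or Thy1 was found in 30 of the 90 members with Fcer1g and in 30 of the 42 without, although the latter were shallower (median 3065 against 4227.5 UMIs). In the ileum alone these counts were 26 of 72 and 26 of 36. Cd5 had a UMI in 0 of 90 and 15 of 42 cells. Cd6 was at 0.0966 UMIs per 10000 in the members with Fcer1g and 2.29 in those without, next to 1.98 in Cd8a+ Cd8b1+ cells. Thy1 was at 0.459 and 3.11 (3.84 in Cd8a+ Cd8b1+ cells), Il7r at 0.0966 and 2.29 (2.78), Ms4a4b at 0.507 and 5.13 (6.67), and Lat at 1.35 and 4.32 (5.17). In each of these genes the members without Fcer1g had the level nearer to the Cd8a+ Cd8b1+ cells.

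Tyrobp, Klrd1 and the granzymes had higher levels in the members with Fcer1g. Tyrobp was at 9.54 UMIs per 10000 with Fcer1g and 0.742 without, Klrd1 at 11.9 and 2.29, Ikzf2 at 9.05 and 2.23, Il2rb at 3.98 and 0.540, and Cd7 at 32.0 and 9.85. Gzma was at 149.4 and 29.7 and Gzmb at 29.2 and 5.80. Gamma-delta cells, not split by Fcer1g, had 152.8 of Gzma, 27.5 of Gzmb and 10.9 of Klrd1, close to the members with Fcer1g. Their levels of Tyrobp (4.48), Ikzf2 (5.96), Il2rb (2.25) and Cd7 (22.9) were below those of the members with Fcer1g. Of gamma-delta cells 74.4% had a Fcer1g UMI, so these levels set chosen members beside an unchosen class. Without the split, none of these genes passed against gamma-delta cells. Cd160 (6.06 and 5.53) and Itgae (4.85 and 4.18) differed little. Of the tested genes other than Fcer1g, 1.52% had a higher level with Fcer1g and 2.06% a lower one, with intervals that did not overlap. Of the adaptor and NK receptor list 12 of 22 were higher and 0 lower by this criterion, of the cytotoxic list 7 of 21 higher and 3 lower, and of the conventional list 0 of 16 higher and 8 lower.

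Markers of other cells also differed between these members. With Fcer1g, 7 of 13 goblet, Paneth and tuft cell markers were lower and 1 higher (Lrmp), and 5 of 17 enterocyte markers were lower. Of 5 macrophage and dendritic cell markers 3 were lower, and of 17 immediate early genes 11. Tff3, a goblet cell peptide, was at 7.39 and 52.9 UMIs per 10000 with and without Fcer1g, and Cst3 at 1.52 and 32.1. The barcode of 28565 UMIs described above was among the members without Fcer1g. When it was left out, an alternative added after the data were seen, 1.18% of the tested genes were higher with Fcer1g and 1.57% lower, Tff3 was at 7.27 and Cst3 at 1.09 in the remaining 41 cells without Fcer1g, and the goblet list had 2 markers higher (Fcgbp and Zg16) and 0 lower. The adaptor and NK receptor list still had 12 higher and the conventional list 7 lower, while the cytotoxic list had 3 higher (Gzma, Gzmb and Ccl5) and 2 lower, the enterocyte list 3 lower and the immediate early list 4 lower and 1 higher. Without Fcer1g and without this barcode, Gzma was at 36.7, Klrd1 at 2.84, Tyrobp at 0.0836 and Thy1 at 3.51. The part that the remaining enterocyte RNA and missed Cd8b1 or Trdc RNA have in these values was not tested.

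**Figure D4:**
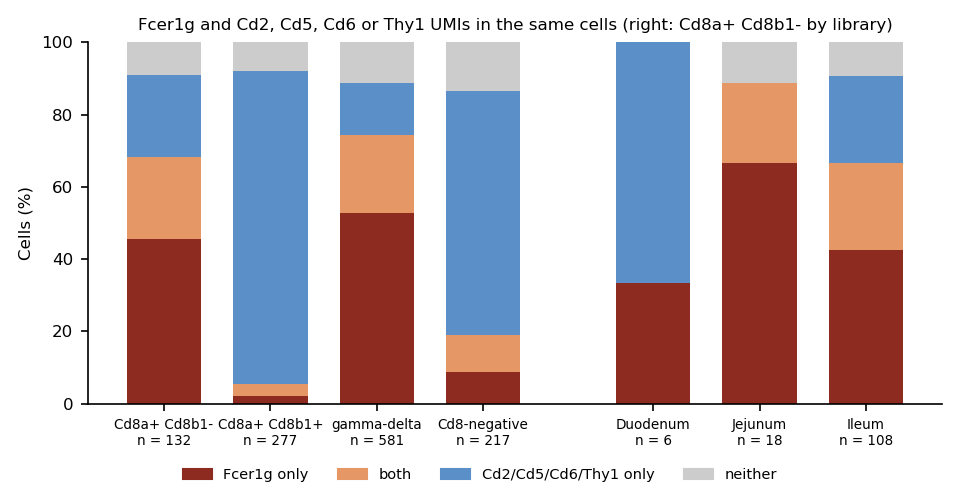
Percentage of cells with a UMI of Fcer1g only, of Cd2, Cd5, Cd6 or Thy1 only, of both or of neither, in the 4 classes over all libraries (left) and in the Cd8a+ Cd8b1- cells of each library (right), with the number of cells under each bar. Of 132 members 90 had Fcer1g, 30 of them with a conventional gene as well, and 12 had neither.

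Levels also differed between the members of the segments. Of the tested genes, 1.06% were higher in the jejunal than in the ileal members with intervals that did not overlap, and 1.2% were lower. Of the adaptor and NK receptor list 10 of 23 were higher (Fcer1g, Tyrobp, Klrd1, Klre1, Klra1, Klra7, Cd244, Cd7, Il2rb and Lag3) and 0 lower, and of the cytotoxic list 5 of 21 higher (Gzma, Gzmb, Nkg7, Srgn and Ccl5) and 0 lower. Other cells' markers differed too, with 8 of 13 goblet, Paneth and tuft cell markers lower in the jejunum. Of 12 B and plasma cell markers 4 were lower and 1 higher, and of 17 enterocyte markers 5 were lower and 2 higher. The 4 were H2-Ab1, H2-Aa, H2-Eb1 and Cd74. The ileal barcode of 28565 UMIs held 191, 210, 229 and 695 of their UMIs. All members without Fcer1g, this barcode included, held 197, 212, 230 and 706, and those with Fcer1g 16, 9, 16 and 27. The segments were not compared without this barcode. Gzma was at 241.5 (95% interval 230.3 to 253.2) in the jejunum, 103.5 (100.6 to 106.5) in the ileum and 6.45 (3.33 to 11.3) in the duodenum. Thy1 went the other way, at 0.139 (0.00353 to 0.777) in the jejunum against 1.31 (1.01 to 1.68) in the ileum.

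The 6 duodenal members had more of the conventional genes Cd5, Cd6, Cd28 and Il7r and of Gzmk than the ileal members, and less of Klrd1, Gzma, Gzmb, Ctsw and Ccl5, by the same criterion, which 1.25% of the tested genes met as higher and 0.437% as lower. Of the adaptor and NK receptor list, Hcst was higher in the duodenum (10.2 against 4.64 UMIs per 10000) and Klrd1 lower. Ccl5 was at 106.9 (92.6 to 122.9) in the duodenum, 211.0 (200.5 to 221.9) in the jejunum and 128.9 (125.7 to 132.2) in the ileum. These libraries differed also in other cells' RNA, since the goblet, Paneth and tuft cell markers of the members summed to 9.67, 11.4 and 100.2 UMIs per 10000. Of the UMIs of this list, 55.7% were in a single member, the ileal barcode of 28565 UMIs. In the duodenum 5 of these 13 markers were lower than in the ileum. So were 4 of 12 B and plasma cell markers, again H2-Ab1, H2-Aa, H2-Eb1 and Cd74, whose UMIs lay mostly in that barcode. Of 17 enterocyte markers 5 were higher and 1 lower. The part of other cells' RNA in these differences was not tested. Few cells carried the duodenal and jejunal values, each segment was 1 library, and the differences were not tested.

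**Figure D5:**
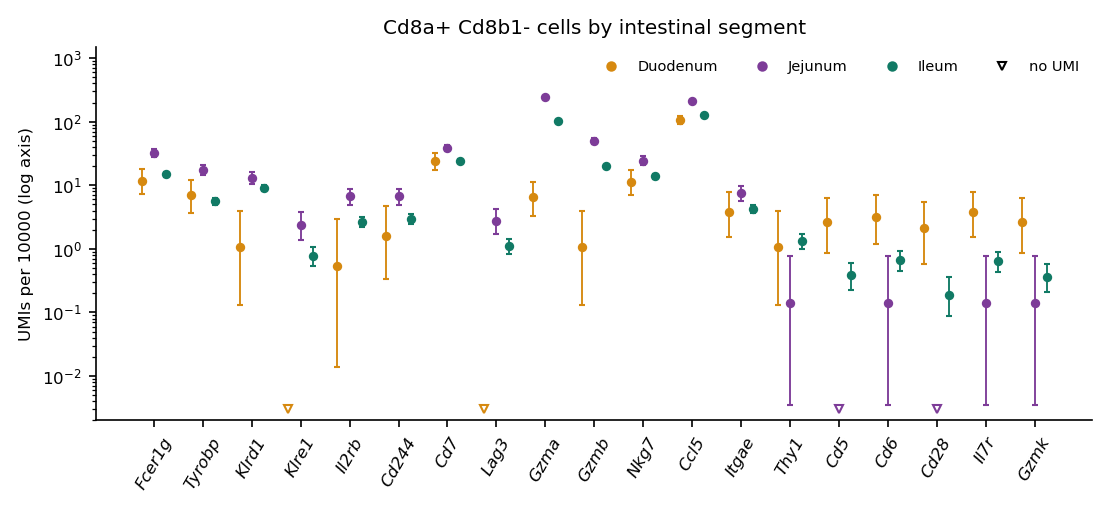
UMIs per 10000 (log axis) of 19 genes in the Cd8a+ Cd8b1- cells of the duodenum, jejunum and ileum, with exact Poisson 95% intervals. Open triangles at the bottom mark genes without a UMI. Gzma was at 241.5 in the jejunum against 6.45 in the duodenum, and Cd6 at 0.139 against 3.22.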

How the data were processed

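Single-cell RNA was sequenced in 3 libraries, 1 per intestinal segment. The authors made the deposited tables of whole UMI counts per gene and barcode with Cell Ranger 3.0.2 (submitters' processing notes). The counts are raw, for barcodes called as cells. Members and comparison classes were chosen by the stated UMI rules, and gene lists, members and the genes named were chosen with earlier results of these data known. Named genes were those of 21 lists (320 genes) and the 10 (other comparisons 5) largest changes each way among called genes that moved alike in all 3 libraries. Other genes named were chosen after their values were seen.

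UMIs were summed per library and class (at least 10 cells) and tested in R 4.3.3 with edgeR 4.0.16 (filterByExpr, TMM, quasi-likelihood F test, library as block, Benjamini-Hochberg, threshold 0.05) over all 9 sums of the 4 classes, which left 3 residual degrees of freedom. SE is the log2 fold change divided by the root of F. The 27 genes of the rule stayed in the fit and out of all counts. The script was tested on simulated data. DESeq2 1.42.0 was an alternative, with other thresholds, depths, thinning and blocks. Levels were computed with scipy 1.17.1, pandas 2.3.3 and numpy 2.4.6 under Python 3.11.15, with exact Poisson 95% intervals, and shares with exact binomial ones. No doublet caller was run. Gene positions are those of GENCODE M21 on GRCm38, in which 99.86% of gene IDs were found. The labels do not say what the letters CD in the sample names stand for.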

Additional observations from a re-analysis of the deposited data

Results flagged for a closer look

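Of the genes named in the comparisons, 54 against Cd8a+ Cd8b1+ cells and 34 against gamma-delta cells were examined for a difference between the members and the other class that went opposite ways in the jejunum and the ileum, the libraries with at least 10 cells of every class. Each segment is 1 library, so the reversal itself was not tested, and some such pairs are to be found by chance among genes of near-equal level.

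Against Cd8a+ Cd8b1+ cells, Nkg7, a granule membrane protein of cytotoxic cells, was at 24.5 UMIs per 10000 in jejunal members against 13.9, and at 13.8 in ileal members against 16.6. Against gamma-delta cells, 5 genes were higher in the jejunal and lower in the ileal members. Gzma was at 241.5 against 159.0 in the jejunum and at 103.5 against 150.5 in the ileum. Gzmb was at 49.4 against 30.8 and at 19.9 against 26.4. Klrd1 was at 13.1 against 8.23 and at 9.11 against 11.3. Ccl5 was at 211.0 against 171.5 and at 128.9 against 164.7. Nkg7 was at 24.5 against 20.3 and at 13.8 against 16.5. The jejunal members were 18 cells, of which 16 had Fcer1g, against 72 of 108 in the ileum, and the part of that difference in these values was not tested.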

How the results depend on the processing

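Against Cd8a+ Cd8b1+ cells, 48 named genes kept their direction and their side of the threshold in 744 of their values under the alternatives, lost the call in 162 and changed sign in 9; against gamma-delta cells 14 genes did so in 159, 69 and 3, and against Cd8-negative cells 56 genes in 823, 148 and 4. Fcer1g, Tyrobp and Ikzf2 against Cd8a+ Cd8b1+ cells and Tcrg-C1 against gamma-delta cells kept the call in every alternative run, for Tcrg-C1 without counting the removal of gamma constant UMIs, which fixes its outcome. The counts of genes higher and lower moved by more than 1.5 times as follows. DESeq2 called 17 and 6 against Cd8a+ Cd8b1+ cells, 1 and 1 against gamma-delta cells, and 21 and 40 against Cd8-negative cells. Without the library block the counts were 12 and 1, 0 and 1 (no gene higher by edgeR, against 18 with it), and 11 and 40. Sums of at least 5 cells gave 23 and 13, 2 and 3, and 42 and 73, and sums of at least 3 cells, added after the data were seen, 20 and 10, 1 and 3, and 33 and 52. Leaving out barcodes with at least 2 UMIs of B cell, macrophage or goblet cell markers gave 31 and 28, 6 and 2, and 57 and 107. Leaving out those with 20 or more UMIs of other cells, also added later, gave 5 and 13 against gamma-delta cells. Thinning to 2000 UMIs gave 29 and 14 against Cd8a+ Cd8b1+ cells, and fitting only the classes compared 50 and 89 against Cd8-negative cells. Without alpha-beta cells that held a gamma constant UMI, which left 20 members, the fit had 7 sums and 1 residual degree of freedom, and the members and the Cd8a+ Cd8b1+ cells were 1 ileal sum each, assumed to vary like the other classes. Here 105 genes were lower than in Cd8a+ Cd8b1+ cells, 52 higher than in gamma-delta cells, and 67 higher and 59 lower than in Cd8-negative cells. Fewer cells or sums entered several of these, and otherwise the cause was not tested.

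Signs changed without gamma constant UMIs for Gzmb (-0.28), Il2rb (-0.14), Lat2 (-0.40), Stmn1 (-2.06), Tnfrsf9 (-4.92) and Igha (0.59) against Cd8a+ Cd8b1+ cells, Ada (-0.34) against gamma-delta cells, and Cd200r2 (-3.02), Clnk (-2.99), Il2rb (-0.54) and Klre1 (-5.92) against Cd8-negative cells. They changed without other cells' markers for Igha (0.94, and 0.56 under the limit of 20 UMIs) and Ly6a (1.26) against Cd8a+ Cd8b1+ cells and for Cd5 (-1.74) against gamma-delta cells, and without the block for Hspa1a (-0.63) against gamma-delta cells.

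The share of Cd8a+ alpha-beta T cells without Cd8b1 was 37.7% in the ileum and 41.3% over all libraries after thinning to 2000 UMIs. Among cells of at least 5000 UMIs it was 100.0% in the jejunum. No jejunal Cd8a+ Cd8b1+ cell had more than 4890 UMIs, so this limit fixed that value. Without gamma constant UMIs the share was 0% in the duodenum, 100.0% in the jejunum, 34.7% in the ileum and 37.7% over all libraries. There the duodenum and the jejunum held too few cells of either class for a sum, so their values show no difference between segments. Leaving out 1 library at a time, the share ranged from 29.9 to 64.9%, the latter without the ileum. The share of members with a Fcer1g UMI was 68.2% unthinned and 72.5% at 2000 UMIs, and with a Thy1 UMI 27.3% and 19.3%, against 58.3% and 10.6% at 800 UMIs. Leaving out the jejunum or the ileum leaves 1 sum of the members and no residual degrees of freedom, so those tests were not run. No paired analysis was possible because each segment has 1 library and no replicate number beyond 1; the library block joins classes of the same library instead, and without it the calls fell as given. Depth limits genes of few UMIs, such as the Ly49 receptors and variable segments.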
